A study of Mus musculus with 24 samples.

Results

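The response of the wild-type mouse kidney to 10 days of unilateral ureteral obstruction (UUO) was described across all genes from 8 of the 24 libraries of the series. They were chosen by their labels: 4 libraries of wild-type (WT, PLD4+/+) kidney at day 10 of UUO, and 4 of WT control kidney at day 0. The whole series set WT against Pld4 knockout (KO, PLD4-/-) kidney at day 0 and at days 5 and 10 of UUO, with 4 libraries in each of 6 groups. RNA was read by stranded mRNA sequencing, and each library gave a whole-number count per gene. Age, sex, strain, any sham operation at day 0 and whether the replicates are separate animals are not given in the sources used here. The p-values and standard errors (SE) therefore measure spread between libraries, which may be technical. That spread was pooled over all 24 libraries of the 6 groups, so it is not that of the groups compared alone. Values per library are given in the order of replicates 1, 2, 3 and 4.

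In UUO the ureter of a single kidney is closed and urine backs up into its tubules. The tubule epithelium is injured, loses its transporters and its oxidative metabolism and takes on a repair state, while fibroblasts and pericytes of the interstitium turn into matrix-secreting myofibroblasts and leukocytes enter from the blood. Monocytes, macrophages and T cells are the leukocytes best known from this model, and neutrophils are cells of acute inflammation and infection that are drawn by CXC chemokines.

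The day 0 libraries carried the defining markers of kidney. Levels are in CPM, a gene's count relative to its library's total count after TMM scaling (edgeR's trimmed mean of M values). The proximal tubule receptor gene Lrp2 had 2893 to 3566 CPM over the 4 day 0 libraries, the thick limb gene Umod 5228 to 7698 CPM, the collecting duct water channel Aqp2 122 to 315 CPM, the podocyte gene Nphs1 12.1 to 22.0 CPM and the endothelial gene Pecam1 48.3 to 69.4 CPM. Total counts were 17359104, 17864169, 15404851 and 17939743 in the day 10 libraries and 15143836, 14609082, 13833486 and 14934318 in the day 0 libraries. Every day 10 library was thus deeper than every day 0 library. The TMM factors were 1.22, 1.11, 1.08 and 1.05 at day 10 and 0.764, 0.805, 0.806 and 0.779 at day 0. After scaling, the library sizes behind the CPM therefore differed more between the groups than the total counts did. Pld4 itself had 68.7, 85.4, 117 and 54.6 CPM at day 10, against 5.10, 5.53, 7.89 and 8.25 CPM at day 0, a log2 fold change of 3.61 ± 0.30 (SE, n = 4 each). The KO libraries held Pld4 counts too, with 9.48 ± 2.48 CPM at day 0 and 37.3 ± 10.7 CPM at day 10 (mean and SD, n = 4 each).

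The 4 day 10 libraries did not form a tight group. On the first principal component of the 8 libraries, which held 83.7% of the variance, the day 10 libraries scored 69.8, 161, 142 and 24.9, against -109, -95.4, -91.4 and -102 at day 0. On the second, with 7.34%, replicates 1 and 4 lay at 59.0 and 43.8 and replicates 2 and 3 at -40.3 and -21.0. The median absolute log2 difference of a gene from a day 0 library was 0.90 to 0.95 for replicate 2, 0.81 to 0.87 for replicate 3, 0.76 to 0.81 for replicate 1 and 0.47 to 0.53 for replicate 4, while day 0 libraries differed from each other by 0.14 to 0.20. The SD of log2 CPM over the 4 libraries had a median over genes of 0.373 at day 10 and 0.154 at day 0, and it was larger at day 10 for 12721 of 15080 genes (84.4%). Results below are therefore given per library and, where replicates 2 and 3 carry them, also without both.

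**Figure D1:**
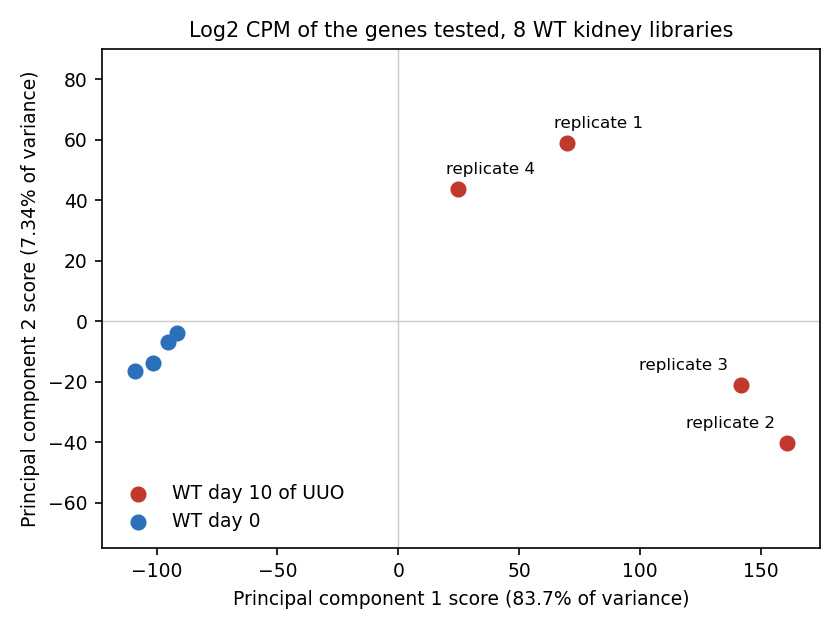
Scores of the 8 WT libraries on the first and second principal components of log2 CPM over the 15080 genes tested. The x axis holds 83.7% and the y axis 7.34% of the variance. Day 10 replicates 2 and 3 (161 and 142 on the x axis) lie farther from the 4 day 0 libraries than replicates 1 and 4 (69.8 and 24.9).

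Most genes differed between day 10 and day 0. Of 15080 genes tested, 10267 had an adjusted p under 0.05 by edgeR's quasi-likelihood test with Benjamini-Hochberg adjustment (68.1%). Of these, 5700 were higher at day 10 (37.8% of those tested) and 4567 lower (30.3%), and the median log2 fold change of all genes tested was 0.12. When only the 2 groups were fitted, 9005 of 14310 genes were called. With scaling to total counts in place of TMM the median moved to 0.62 and the share of calls that were higher to 78.3%, against 55.5% with TMM, so directions of small changes depend on the scaling and are given relative to the TMM scale. A gene is said to have risen or fallen only where it passed this test, and a shift of that size does not turn the direction of any list described as risen or fallen here.

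The rise reached farther than the fall. Calls of at least 3 on the log2 scale numbered 1226 upward and 209 downward, and of at least 5, 359 upward and 8 downward. All 4 day 10 libraries lay above all 4 day 0 libraries for 4882 genes (32.4%) and below them for 4371 (29%). Replicate 4 stood closest to day 0: it had 2839 genes at least 2-fold above and 1057 at least 2-fold below the day 0 mean, against 3888 and 3264 in replicate 2. Among the 1226 genes raised by at least 3, the highest day 10 library was replicate 3 for 635 (51.8%), replicate 2 for 430 (35.1%), replicate 1 for 137 (11.2%) and replicate 4 for 24 (1.96%). Among the 209 lowered by at least 3, the lowest was replicate 2 for 183 (87.6%). Over all 15080 genes tested, replicates 1 to 4 were the highest day 10 library for 23.9%, 24.9%, 21.6% and 29.6%. They were the lowest for 21.5%, 31.9%, 17.2% and 29.4%. Every count below of list members highest or lowest in a day 10 library is to be read beside these shares.

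Without replicates 2 and 3, 8628 of 15294 genes were called (56.4%), 4949 higher (32.4%) and 3679 lower (24.1%). Of the higher calls, 4636 of 5699 still tested remained called in the same direction, and of the lower calls 3497 of 4567. The fold change of 34 higher calls had the opposite sign without both libraries, 3 of them called. The size of many changes and the call of some thus moved without these 2 libraries, and each list below shows how much. Leaving them out also leaves only 2 day 10 libraries, which can by itself lose calls. No other pair was left out, so lost calls cannot be credited to these libraries alone. Every count of list members called is to be read beside the shares over all genes tested, 37.8% higher and 30.3% lower. In bulk tissue a lower level can come from fewer cells of a type or from less RNA per cell, and these cannot be told apart here.

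Genes of tubular injury rose in every day 10 library. Of 22 tested members of the injury and repair list 19 rose and none fell, with a median log2 fold change of 3.93 against 0.12 for all genes, and the mean of the list lay 3.66, 4.41, 3.91 and 3.5 above its day 0 mean in the 4 libraries. Havcr1, which encodes the shed injury protein KIM-1, had 615, 1337, 787 and 844 CPM at day 10, against 4.06, 6.80, 7.18 and 4.30 CPM at day 0. Its fold change was 7.32 ± 0.33 (adjusted p = 3.32e-12), and 7.06 without replicates 2 and 3. Krt20, a keratin of surface epithelia, had 58.9, 53.5, 34.5 and 57.4 CPM at day 10 and at most 0.340 CPM at day 0 (7.98 ± 0.47, adjusted p = 9.92e-11). Both genes kept a narrow range at day 10, and no day 10 library came near the day 0 level.

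Other members of the list were as even. Sox9, a transcription factor of regenerating tubules named here after its values were seen, had 27.4, 49.4, 37.6 and 29.3 CPM at day 10, against 1.30, 1.11, 0.538 and 1.2 CPM at day 0 (5.10 ± 0.35, adjusted p = 4.84e-10). Vcam1, an adhesion molecule of injured tubule and endothelium, had 453, 315, 649 and 299 CPM at day 10, against 6.31, 8.93, 7.98 and 11.9 CPM at day 0 (5.61 ± 0.29). Spp1, which encodes osteopontin, had 21840.4, 27213, 14802 and 17163 CPM at day 10, against 955, 1084, 1501 and 935 CPM at day 0 (4.18 ± 0.39). Per length, in FPKM, Spp1 averaged 12734 at day 10 and 444 at day 0, which put it second of all genes at day 10 and at rank 127 at day 0. Lcn2 and Cd44 spread more. Lcn2, the siderophore-binding protein NGAL that both injured tubules and neutrophils make, had 522, 3025, 2980.0 and 313 CPM at day 10, against 2.51, 5.70, 10.0 and 5.33 CPM at day 0 (8.18 ± 0.79, and 6.18 without replicates 2 and 3). Cd44, the hyaluronan receptor, had 177, 463, 405 and 97.6 CPM at day 10 and 1.56 to 3.5 CPM at day 0 (6.88 ± 0.44). The keratin gene Krt7 and the growth factor gene Hbegf were among the 3 not called, at 0.38 ± 0.21 and 0.39 ± 0.27, though both passed the test without replicates 2 and 3, at 0.71 and 0.74, Krt7 also without replicate 3 (0.59) and Hbegf without day 0 replicate 4 (0.66).

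The proximal tubule list fell as a whole, and it fell in one order of libraries. All 26 tested members were lower at day 10 (30.3% of all genes), with a median of -2.95, and 23 of them without replicates 2 and 3, with a median of -2.15. The list mean lay 3.15, 6.68, 5.04 and 1.45 log2 units below its day 0 mean in replicates 1 to 4. Replicate 2 was the lowest and replicate 4 the highest day 10 library for all 26 members. Lrp2, the endocytic receptor megalin, had 405, 69.4, 219 and 1044 CPM at day 10, against 3374, 3059, 2893 and 3566 CPM at day 0 (-2.89 ± 0.55, adjusted p = 0.000101). Slc34a1, the phosphate transporter, had 1046, 26.2, 187 and 2686 CPM at day 10, against 9591, 8249, 7766 and 8674 CPM at day 0 (-3.12 ± 0.79, adjusted p = 0.00166). The highest day 10 library of each gene still lay below the lowest day 0 library.

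Kap, an androgen-regulated gene of the proximal tubule, showed the same order. It had 5739, 262, 1389.9 and 17285 CPM at day 10, against 64527, 56363, 55703 and 57123 CPM at day 0 (-3.24 ± 0.78, adjusted p = 0.000973). In FPKM, a level per length, it averaged 11154 at day 10 and 69099.9 at day 0 and stayed among the 3 highest genes of both groups. Ggt1, the brush border glutathione hydrolase, fell by 3.02 ± 0.53 on the log2 scale, and Gatm, the first enzyme of creatine synthesis, by 2.80 ± 0.41.

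The distal nephron fell less evenly. Of 16 thick limb and distal convoluted tubule genes 13 fell and 1 rose, with a median of -2.04, and all 16 collecting duct genes fell, with a median of -1.82; without replicates 2 and 3 the counts were 12 lower and 1 higher (median -1.42), and 12 lower (median -1.08). Umod, the uromodulin of the thick limb, had 2288, 112, 875 and 3745 CPM at day 10, against 5229.9, 6502, 7698 and 5228 CPM at day 0 (-1.81 ± 0.54, adjusted p = 0.0058, and -1.003 without replicates 2 and 3). Egf, made in the distal convoluted tubule and named after its values were seen, had 30.1, 10.9, 16.6 and 435 CPM at day 10, against 2054, 2281, 2574 and 2226 CPM at day 0 (-4.21 ± 0.96). Replicate 4 thus held much more Egf than the other day 10 libraries, though far less than any day 0 library. Pvalb, the calcium-binding parvalbumin of the early distal convoluted tubule, was nearly lost. It had no count in replicates 1 to 3 and 0.212 CPM in replicate 4, against 27.4, 27.3, 35.6 and 24.4 CPM at day 0 (-8.89 ± 0.87, adjusted p = 4.53e-08). Calb1, another calcium-binding protein of that segment, fell by 3.62 ± 0.61. Aqp2 had 18.3, 2.74, 10.5 and 144 CPM at day 10, against 122, 181, 315 and 175 CPM at day 0 (-2.17 ± 0.69, adjusted p = 0.0085, and -1.26 without replicates 2 and 3), so that replicate 4 overlapped the day 0 libraries. Without replicate 4 the fold change was -6.87 for Egf and -4.21 for Aqp2, and Umod and Aqp2 lost their calls when the 2 groups were fitted alone.

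The member that rose in the counts was Kng1, a kininogen gene with a close copy, Kng2. It had 4.50, 4.82, 4.23 and 4.97 CPM at day 10, against 0.519, 1.19, 1.08 and 0.773 CPM at day 0 (2.37 ± 0.26). In the authors' deposited FPKM values Kng1 was lower at day 10 instead, with a limma fold change of -0.65 on the log2(FPKM + 1) scale. Its direction therefore differs between the deposited tables, and how each divided reads between the copies was not tested.

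Genes of energy metabolism fell together. All 24 tested fatty acid oxidation and peroxisome genes were lower (median -1.85), all 24 respiratory chain and ATP synthase genes (median -1.72), 16 of 17 citric acid cycle and gluconeogenesis genes (median -1.80) and 17 of 19 amino acid, creatine and vitamin D genes (median -2.47), beside 30.3% of all genes. Acadm, the medium-chain acyl-CoA dehydrogenase, named after its values were seen, had 188, 84.1, 87.0 and 633 CPM at day 10, against 2229, 2193, 2243 and 2372 CPM at day 0 (-3.19 ± 0.49, adjusted p = 1.09e-05). Cox5a, a subunit of cytochrome c oxidase, had 134, 135, 136 and 219.7 CPM at day 10, against 410.1, 385, 439 and 393 CPM at day 0 (-1.38 ± 0.17, adjusted p = 4.84e-07). The groups did not overlap for either gene, and replicate 4 was the highest day 10 library for both. It was also the highest for all 24 oxidation and all 24 respiratory genes. Without replicates 2 and 3 all 24 respiratory genes (median -1.29) and 21 oxidation genes (median -1.41) were still lower.

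A pair of genes in these lists rose. Pck2, the mitochondrial form of the gluconeogenic enzyme PEPCK, had 58.5, 49.3, 36.0 and 40.8 CPM at day 10, against 18.9, 18.9, 23.0 and 20.6 CPM at day 0 (1.18 ± 0.15, adjusted p = 8.11e-07), while the cytosolic form Pck1 had 308, 8.83, 23.7 and 1509 CPM at day 10, against 2519, 2216, 2166 and 3396 CPM at day 0 (-2.48 ± 0.93, adjusted p = 0.0233). Pck1 lost its call without replicate 1 (-2.30), without replicates 2 and 3 (-1.48) or with the 2 groups fitted alone (-2.47), and was at -4.47 without replicate 4. Cyp27b1, the enzyme that makes active vitamin D, had 38.7, 10.8, 19.6 and 20.4 CPM at day 10, against 8.13, 4.51, 4.93 and 3.27 CPM at day 0 (2.10 ± 0.37, adjusted p = 4.09e-05). Neither rising gene overlapped between the groups. Hpd, an enzyme of tyrosine breakdown, was not called at -2.30 ± 1.02, with 2.61, 0.0507, 0.181 and 29.3 CPM at day 10, and was called without replicate 4, at -5.29.

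**Figure D2:**
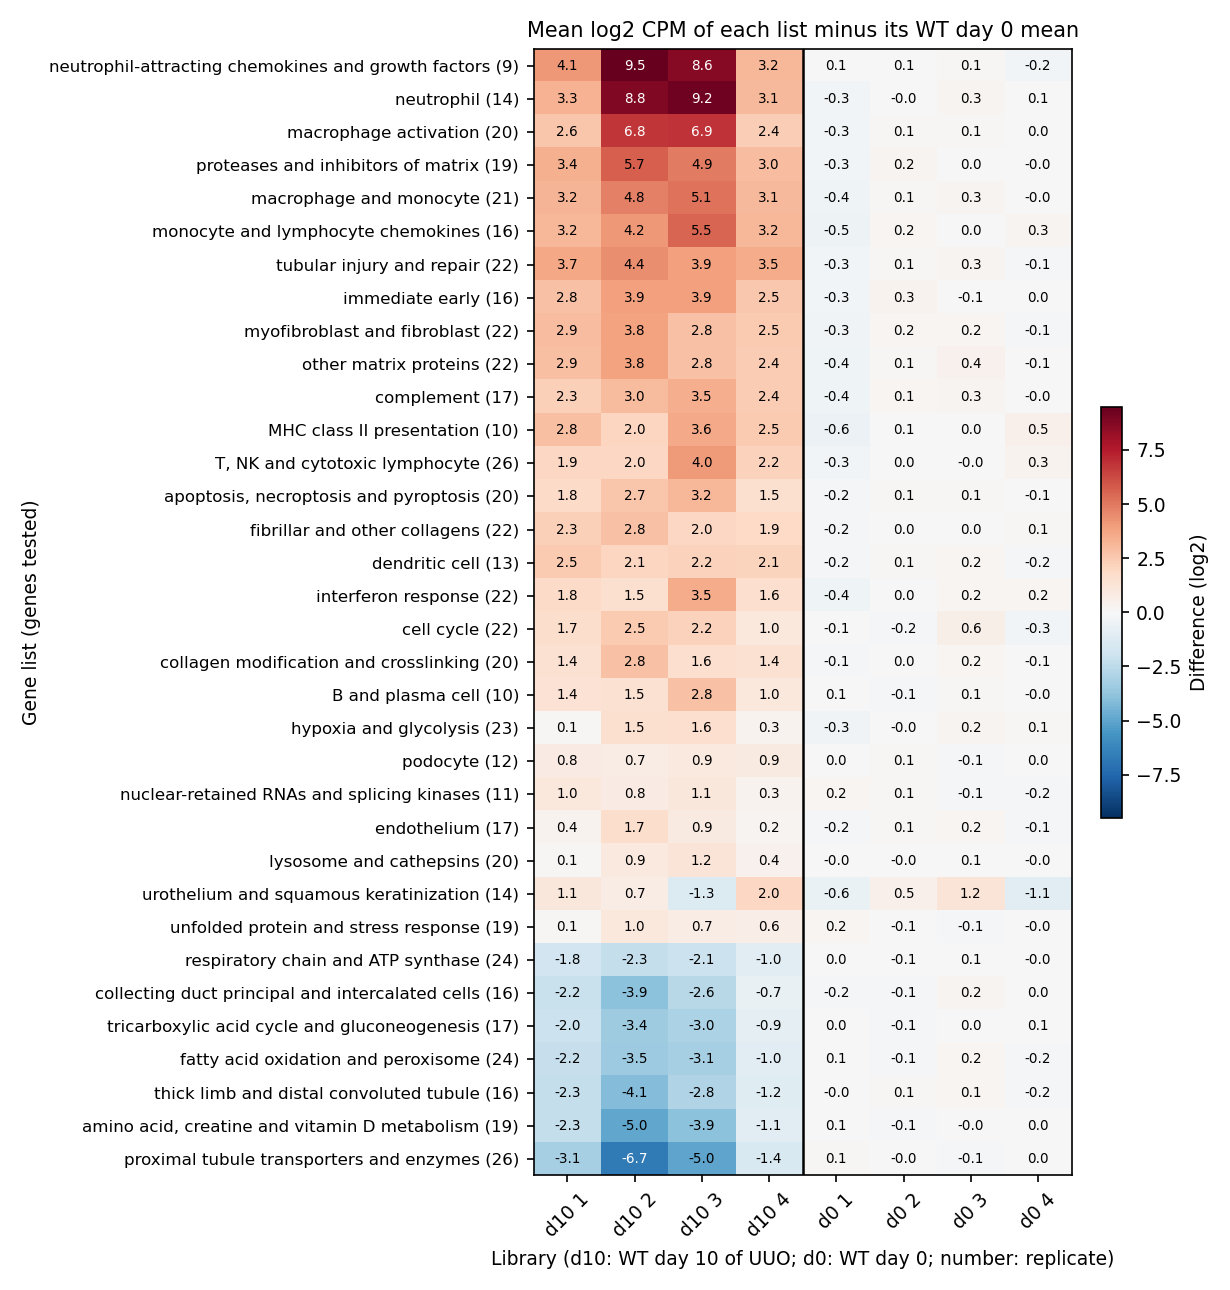
Mean log2 CPM of the tested members of each gene list minus the same list's mean over the 4 WT day 0 libraries, one column per library (day 10 left of the line, day 0 right) and one row per list with its number of genes tested. Red is higher and blue lower than the day 0 mean; neutrophil genes lie 8.8 and 9.2 higher in day 10 replicates 2 and 3 against 3.3 and 3.1 in replicates 1 and 4, and proximal tubule genes lie lowest in replicate 2 (-6.7).

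Matrix genes rose in all 4 day 10 libraries, with the largest values in replicate 2. Of 22 collagen genes 19 rose and 3 fell (median 2.81), of 22 other matrix proteins 21 rose (median 3.27) and of 20 genes of collagen modification and crosslinking 15 rose and 1 fell (median 1.35, and 0.78 without replicates 2 and 3), beside 37.8% of all genes higher. Replicate 2 was the highest day 10 library for 14 collagens, 16 other matrix proteins and 18 crosslinking genes. Col1a1, a chain of type I collagen, had 779, 2862, 1245 and 387 CPM at day 10, against 25.5, 34.1, 48.9 and 43.5 CPM at day 0 (5.12 ± 0.50, and 3.97 without replicates 2 and 3). Col3a1, of type III collagen, had 1199.9, 4983, 1626 and 616 CPM at day 10, against 42.5, 61.8, 90.3 and 68.6 CPM at day 0 (5.00 ± 0.51, and 3.82 without both). The lowest day 10 library lay far above the highest day 0 library for both.

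Some matrix genes were nearly level across the day 10 libraries. Bgn, the small proteoglycan biglycan, had 757, 914, 798 and 742 CPM at day 10, against 111, 146, 154 and 127 CPM at day 0 (2.58 ± 0.21, adjusted p = 3.07e-09). Col6a3, a chain of the beaded-filament type VI collagen, had 187, 245, 106 and 153 CPM at day 10 and 14.0 to 20.6 CPM at day 0 (3.27 ± 0.25). Others were not: Tnc, the matrix glycoprotein tenascin C, named after its values were seen, had 197, 1198, 99.0 and 71.5 CPM at day 10, against 1.90, 7.4, 8.97 and 4.64 CPM at day 0 (6.09 ± 0.81). The 3 collagens that fell were Col4a3, Col4a4 and Col4a5, chains of the mature basement membrane network of glomerulus and distal tubule. Col4a3 had 191, 42.0, 80.3 and 237 CPM at day 10, against 523, 525, 503 and 537 CPM at day 0 (-1.92 ± 0.35, and -1.26 without replicates 2 and 3), while Col4a1, of the network that all basement membranes share, had 1096, 1845, 945 and 976 CPM at day 10, against 311, 337, 375 and 411 CPM at day 0 (1.76 ± 0.24). Col4a5 lost its call without replicates 2 and 3, at -0.24, with the 2 groups fitted alone, at -0.67, and with scaling to total counts, at -0.17. Of the crosslinking list, Loxl2, a lysyl oxidase that joins collagen fibres, rose by 3.97 ± 0.43, and Adamts2, which trims procollagen, by 3.99 ± 0.24.

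Fibroblast genes rose with the matrix. Of 22 members 21 rose and none fell (median 2.82; 20 and 2.51 without replicates 2 and 3). Acta2, a smooth muscle actin that activated fibroblasts express, had 148, 408, 129 and 148 CPM at day 10, against 51.5, 76.9, 97.2 and 47.4 CPM at day 0 (1.61 ± 0.37, adjusted p = 0.000679). Pdgfrb, the receptor that marks pericytes and fibroblasts, had 189, 245, 153 and 137 CPM at day 10, against 25.3, 30.0, 32.0 and 35.3 CPM at day 0 (2.56 ± 0.18, adjusted p = 7.32e-10). Ltbp2, which binds microfibrils, had 97.1, 114, 89.5 and 37.3 CPM at day 10, against 0, 0.680, 0.628 and 0.773 CPM at day 0 (7.32 ± 0.52). The groups were apart for all 3 genes. Tgfb1, the ligand that drives fibroblast activation, rose by 2.80 ± 0.21. Cnn1, a calponin of smooth muscle, was the member not called (0.88 ± 0.57), though it was with scaling to total counts, at 1.37.

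Among 19 tested matrix proteases and inhibitors 17 rose and 1 fell (median 4.87, and 3.80 without replicates 2 and 3). Timp1, an inhibitor of metalloproteinases, had 50.3, 1385, 197 and 33.2 CPM at day 10 and 0.172 to 0.595 CPM at day 0 (10.20 ± 1.16, and 6.91 without replicates 2 and 3). Timp3, the matrix-bound inhibitor of the same family, was the one that fell, with 823, 480.2, 556 and 1657 CPM at day 10, against 3922, 3307, 2919.8 and 3148 CPM at day 0 (-1.92 ± 0.36, adjusted p = 8.61e-05). Mmp7, matrilysin, had 59.3, 678, 314 and 30.5 CPM at day 10 and at most 0.258 CPM at day 0 (10.73 ± 1.10). Mmp2, gelatinase A of fibroblasts, was even, with 67.7, 92.6, 63.9 and 50.6 CPM at day 10, against 4.06, 5.10, 4.40 and 3.78 CPM at day 0 (3.98 ± 0.25). Mmp9, the gelatinase of neutrophils and macrophages, was not even, with 3.18, 229, 359 and 2.80 CPM at day 10 and 0.255 to 0.359 CPM at day 0 (9.0 ± 1.36, and 3.40 without both). Plau, the urokinase, was not called (-0.70 ± 0.37), and was called lower without replicate 1 (-1.04) or replicate 4 (-0.93).

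Neutrophil genes set replicates 2 and 3 apart from replicates 1 and 4. All 14 tested of 20 listed members rose, with a median of 8.72 that was 4.26 without replicates 2 and 3, when 13 rose. Members with almost no day 0 count passed the count filter only through libraries of other groups, and members low in every group were not tested. The share that rose was thus largely set by the filter. The list mean lay 3.28, 8.81, 9.21 and 3.12 log2 units above its day 0 mean in the 4 libraries. The summed level of the 14 tested genes was 601, 7733, 10651 and 389 CPM at day 10, against 5.45 to 15.7 CPM at day 0. Lcn2, which injured tubules also make, was most of that sum in replicates 1 and 4, and the other 13 genes summed to 78.9, 4708, 7671 and 76.0 CPM at day 10, against 2.94 to 5.65 CPM at day 0. S100a8, a calprotectin subunit stored in neutrophils, had 2.56, 991, 2141 and 3.76 CPM at day 10, against 0.173, 0.510, 0.449 and 0.172 CPM at day 0 (11.20 ± 1.72, and 3.27 without both). Csf3r, the receptor of the neutrophil growth factor G-CSF, had 18.6, 289, 499.6 and 12.5 CPM at day 10, against 0.692, 0.935, 1.53 and 0.773 CPM at day 0 (7.70 ± 0.94, and 4.01 without both). Replicates 2 and 3 thus held far more of both RNAs than replicates 1 and 4, which themselves lay above all day 0 libraries.

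The chemokine receptor gene Cxcr2 had 1.09, 135, 140.4 and 1.27 CPM at day 10, against 2 counts over the 4 day 0 libraries, a ratio of pooled CPM of 1520 (95% counting interval 421 to 12554, which covers counting error only). Itgam, the integrin CD11b of neutrophils and macrophages, had 40.5, 473, 483 and 41.1 CPM at day 10 and 0.951 to 1.72 CPM at day 0 (7.47 ± 0.76, and 4.83 without both). Padi4, the citrullinating enzyme of neutrophil nuclei, had 1.94, 10.5, 12.5 and 1.48 CPM at day 10, against 2 counts at day 0. The genes of primary granules, made in the bone marrow, stayed low: Elane and Mpo did not pass the count filter, with at most 0.726 and 2.36 CPM in any day 10 library. The neutrophil defining gene Ly6g was not analysed here. Retnlg, a resistin-like gene of neutrophils that did not pass the filter either and is named after its values were seen, had 0.0948, 337, 291 and 0.635 CPM at day 10.

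The ligands of Cxcr2 rose too, from almost nothing. Of the list of neutrophil-attracting chemokines and growth factors all 9 tested of 13 listed members rose (median 9.72, or 8.95 with members at 0 at day 0 put at their bound; 5.41 without replicates 2 and 3, when all 9 were called). Here too, members with almost no day 0 count were tested only because libraries of other groups were high. That all tested members rose was thus largely set by the filter. Cxcl5, a chemokine of epithelial cells, had 24.4, 700.3, 384 and 12.4 CPM at day 10 and no count at day 0, at least 4213-fold higher against 3 counts over the group. Cxcl2, made by macrophages and epithelium, had 10.7, 725, 500.1 and 8.36 CPM at day 10, against 3 counts at day 0, a ratio of 4626 (1583 to 22433). Cxcl1 was the even member, with 54.3, 129, 157 and 51.4 CPM at day 10, against 0.951, 0.340, 0.269 and 0.688 CPM at day 0 (7.42 ± 0.68, adjusted p = 1.95e-08, and 6.56 without both). Il1b, the cytokine interleukin 1 beta, had 6.87, 669, 755 and 3.33 CPM at day 10, against 0.519, 0.850, 1.08 and 0.430 CPM at day 0 (8.95 ± 1.40, and 2.85 without both). All these genes were highest in replicates 2 and 3, and replicates 1 and 4 were still above every day 0 library.

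Cxcl1, Cxcl2 and Cxcl3 are neighbours on mouse chromosome 5, and their promoters are shown because all 3 genes were highest in replicates 2 and 3, though by very different amounts. Cxcl3, another ligand of Cxcr2, had 1.52, 433, 116 and 0.952 CPM at day 10, against 1 count over the 4 day 0 libraries. The sequences are the 250 bases before each gene's start in RefSeq's GRCm38.p6 table, which is not the mm9 build of the deposited values, all on the plus strand: Cxcl1 at chr5:90890995-90891244, Cxcl2 at chr5:90903649-90903898 and Cxcl3 at chr5:90785851-90786100. Capitals mark matches, on either strand and with overlaps joined, to GGG, any 3 bases and then TTCC, a short form of the NF-kappaB site. It was one of 10 patterns searched, some of them variants of each other.
Cxcl1: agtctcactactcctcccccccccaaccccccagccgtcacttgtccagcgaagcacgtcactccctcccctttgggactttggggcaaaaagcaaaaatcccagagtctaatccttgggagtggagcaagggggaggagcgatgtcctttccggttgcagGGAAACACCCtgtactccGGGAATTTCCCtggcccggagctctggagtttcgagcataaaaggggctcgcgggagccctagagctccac
Cxcl2: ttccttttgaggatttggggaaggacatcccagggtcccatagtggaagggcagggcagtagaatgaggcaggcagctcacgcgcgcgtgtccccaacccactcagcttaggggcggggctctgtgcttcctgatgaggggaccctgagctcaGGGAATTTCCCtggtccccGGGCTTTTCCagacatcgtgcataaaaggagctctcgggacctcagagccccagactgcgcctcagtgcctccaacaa
Cxcl3: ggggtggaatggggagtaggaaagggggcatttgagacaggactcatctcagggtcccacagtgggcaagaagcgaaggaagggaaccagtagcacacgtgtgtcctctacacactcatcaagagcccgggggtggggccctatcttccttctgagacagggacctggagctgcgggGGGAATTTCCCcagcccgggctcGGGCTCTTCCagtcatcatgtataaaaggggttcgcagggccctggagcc
Each window held 3 matches, of which a pair overlapped. The pattern stood in 1527 of the 32851 windows of the table (4.65%), in 3 of the 10 listed neutrophil-attracting genes that matched an entry, in 3 of 14 monocyte and lymphocyte chemokines, in 3 of 17 interferon response genes and in 2 of 23 proximal tubule genes. The share over the table counts windows, while a listed gene was counted if any of its windows matched, so the units differ. A match describes the letters of these windows and is no evidence of binding.

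Macrophage genes rose in all day 10 libraries, and most of all in replicate 3. Of 21 tested members 19 rose and none fell (median 4.48), against 18 higher and 1 lower without replicates 2 and 3 (median 3.72). Replicate 3 was the highest day 10 library for 17 of the 21. C1qa, a subunit of complement C1q made by tissue macrophages, had 212, 461, 584 and 198 CPM at day 10, against 11.5, 16.9, 18.2 and 19.3 CPM at day 0 (4.46 ± 0.30). Ccr2, the chemokine receptor of inflammatory monocytes, had 116, 181, 105 and 69.9 CPM at day 10, against 3.98, 5.44, 6.01 and 5.76 CPM at day 0 (4.47 ± 0.27, adjusted p = 9.92e-11). Cx3cr1, the fractalkine receptor, had 63.9, 66.5, 93.1 and 44.2 CPM at day 10, against 4.32, 4.68, 5.65 and 4.13 CPM at day 0 (3.83 ± 0.21, adjusted p = 4.33e-11). None of these 3 genes overlapped between the groups. C1qa was higher in replicates 2 and 3 than in replicates 1 and 4, while Ccr2 and Cx3cr1 did not divide the libraries that way. The list mean lay 3.20, 4.82, 5.14 and 3.09 log2 units above its day 0 mean. The macrophage list thus split the day 10 libraries as the neutrophil list did, though by less. Mertk, an engulfment receptor, was the member called lower without both (-0.54) or without replicate 3 (-0.42); with all 4 libraries it was not called at -0.32 ± 0.17, and with scaling to total counts it stood at 0.16.

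Activation genes followed the split of the neutrophil genes. Of 20 tested members of that list 19 rose (median 8.18, or 7.67 with members at 0 at day 0 put at their bound), and the median was 3.87 without replicates 2 and 3. The members at 0 at day 0 were likewise tested only through libraries of other groups. Arg1, the arginase of alternatively activated and suppressive myeloid cells, had 1.90, 1259.8, 655 and 1.11 CPM at day 10, against 2 counts at day 0, a ratio of 10801 (2990 to 89190). Ptgs2, the inducible cyclooxygenase named after its values were seen, had 7.11, 427, 95.8 and 2.38 CPM at day 10 and 0.0865 to 0.680 CPM at day 0 (8.39 ± 1.27, and 3.61 without both). Replicates 2 and 3 lay far above replicates 1 and 4 for both genes, and no day 10 library overlapped day 0. Chil3, the chitinase-like protein Ym1, likewise named after its values were seen, had 0.0948, 609, 346 and 1.11 CPM at day 10, and replicate 1 lay within the day 0 range of 0 to 0.258 CPM. Retnla, a gene of alternatively activated macrophages named for the same reason, went the other way, with 17.7, 0.964, 0.0605 and 5.50 CPM at day 10, against 0.259, 0, 0.0897 and 0.0859 CPM at day 0 (5.71 ± 1.29, and 6.67 without both). The member not called was Vegfa, a vascular growth factor (-0.42 ± 0.26); it was called lower without replicates 2 and 3 (-0.82) or without replicate 2 (-0.75), and stood at 0.070 with scaling to total counts.

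**Figure D3:**
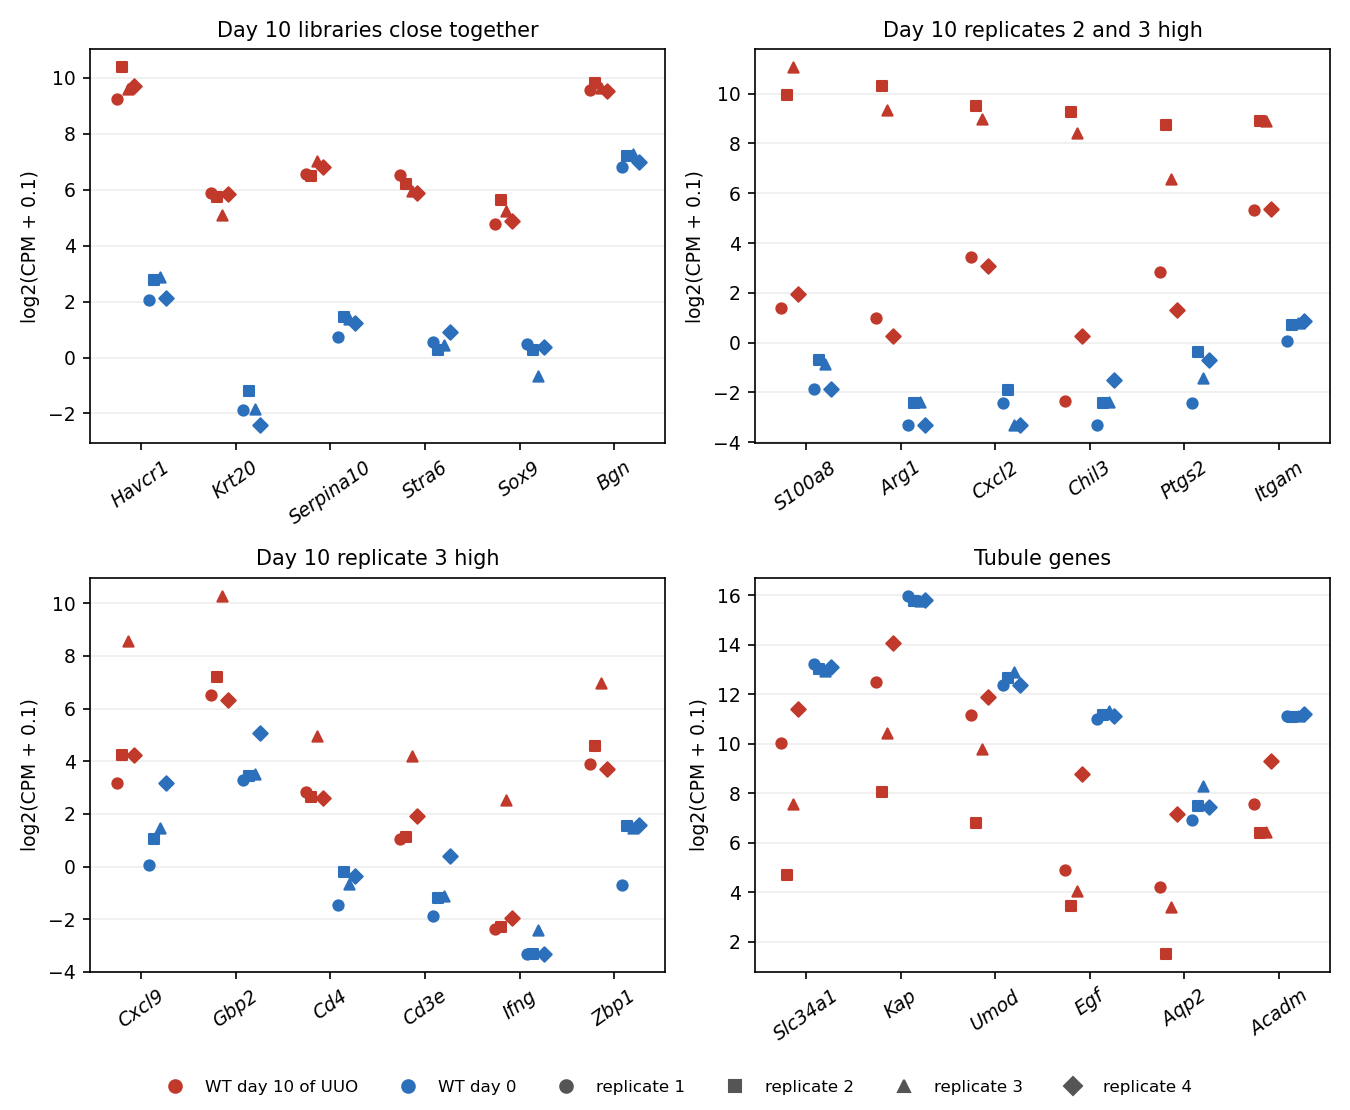
Level of 24 genes in each of the 8 WT libraries, as log2(CPM + 0.1), with day 10 in red left of day 0 in blue and the symbol's shape standing for the replicate. The genes were picked after their values were seen to show 4 patterns: Havcr1 and its panel keep the 4 day 10 libraries within a narrow band, S100a8 and its panel are high in replicates 2 and 3 (991 and 2141 CPM), Cxcl9 and its panel in replicate 3 (381 CPM), and Slc34a1 and its panel are lowest in replicate 2, with only Aqp2 overlapping between the groups.

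Interferon genes singled out replicate 3. All 22 tested members of the interferon response list rose (median 2.17), and 21 without replicates 2 and 3 (median 1.64). Replicate 3 was the highest day 10 library for all 22, and the list mean lay 1.83, 1.52, 3.51 and 1.62 log2 units above its day 0 mean in the 4 libraries. Gbp2, a GTPase induced by interferon gamma and named after its values were seen, had 92.3, 145, 1250.3 and 80.9 CPM at day 10, against 9.69, 10.8, 11.5 and 33.9 CPM at day 0 (4.57 ± 0.75, and 2.42 without both). Ddx58, which encodes the RNA sensor RIG-I, had 96.1, 64.3, 128 and 68.6 CPM at day 10, against 26.5, 28.1, 27.8 and 29.3 CPM at day 0 (1.68 ± 0.18). Day 10 and day 0 did not overlap for either gene, and replicate 3 was the highest library for both. Without replicate 3 alone the log2 fold change of Gbp2 was 2.71.

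Lymphocyte genes had the same highest library. Of 26 tested T, NK and cytotoxic lymphocyte genes 23 rose and none fell (median 3.54; 21 and 2.60 without replicates 2 and 3), with replicate 3 highest for 23. Cd3e, a chain of the T cell receptor complex named after its values were seen, had 1.99, 2.08, 18.3 and 3.70 CPM at day 10, against 0.173, 0.340, 0.359 and 1.2 CPM at day 0 (3.62 ± 0.69). Cd4, the coreceptor of helper T cells, had 6.97, 6.14, 31.4 and 5.98 CPM at day 10 and 0.259 to 0.765 CPM at day 0 (4.46 ± 0.58). Ifng, the cytokine interferon gamma, named for the same reason, had 0.0948, 0.101, 5.63 and 0.159 CPM at day 10 and 1 count in all of day 0. Outside replicate 3, Ifng thus stood at a few counts per library, and without that library it was not called. Cxcl9, a chemokine that interferon gamma induces, had 8.91, 18.9, 381 and 18.6 CPM at day 10, against 0.951, 1.96, 2.69 and 9.02 CPM at day 0 (4.86 ± 0.98, and 1.93 without both), and replicate 1 overlapped day 0 replicate 4. Without replicate 3 the fold change was 2.32 for Cd3e and 2.10 for Cxcl9.

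The promoters of Cxcl9 and Gbp2 are shown as examples of genes highest in replicate 3. They are the 250 bases before the start of Cxcl9 at chr5:92328080-92328329 on the minus strand and of Gbp2 at chr3:142620413-142620662 on the plus strand, from the same RefSeq GRCm38.p6 table. Capitals mark matches on either strand to TTCNNTTTC, a short form of the interferon-stimulated response element.
Cxcl9: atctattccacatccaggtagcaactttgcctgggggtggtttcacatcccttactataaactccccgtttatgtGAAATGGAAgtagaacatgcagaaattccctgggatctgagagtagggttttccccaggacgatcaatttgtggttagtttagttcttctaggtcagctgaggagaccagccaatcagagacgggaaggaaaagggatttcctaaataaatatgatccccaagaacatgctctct
Gbp2: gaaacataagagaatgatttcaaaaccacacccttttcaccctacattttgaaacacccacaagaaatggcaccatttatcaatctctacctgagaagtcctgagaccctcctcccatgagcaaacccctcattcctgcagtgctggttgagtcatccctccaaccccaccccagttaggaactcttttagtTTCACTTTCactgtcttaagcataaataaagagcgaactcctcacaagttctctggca
Each window held 1 match. The pattern stood in 2342 of 32851 windows (7.13%) and in 12 of the 17 interferon response genes that matched an entry (70.6%), against 4 of 14 monocyte and lymphocyte chemokines, 2 of 10 neutrophil-attracting genes and 1 of 23 proximal tubule genes. Here too the table's share counts windows and the list shares count genes with a match in any window. The interferon genes are known for this element, so the share describes the list and not its rise.

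Antigen presentation genes rose too, and their list mean ordered the day 10 libraries as that of the interferon list did. The MHC class II mean lay 2.82, 2.01, 3.57 and 2.51 log2 units above its day 0 mean. All 10 tested MHC class II genes were higher (median 2.95, and 2.94 without replicates 2 and 3), with replicate 3 highest for 9 and replicate 2 lowest for 8. H2-Aa, a class II chain, had 860.4, 295, 1049 and 715 CPM at day 10, against 54.0, 87.1, 89.9 and 118 CPM at day 0 (3.06 ± 0.32). Of 13 dendritic cell genes 12 rose (median 2.35) and of 10 B and plasma cell genes 8 (median 2.47; 6 without replicates 2 and 3). Cd209a, a lectin of monocyte-derived dendritic cells named after its values were seen, had 15.5, 2.18, 0.242 and 7.62 CPM at day 10, against 1.56, 1.62, 1.08 and 1.55 CPM at day 0, so that replicate 3 lay below and replicates 1, 2 and 4 above the day 0 libraries (2.14 ± 0.64, and 3.02 without both). It was not called without replicate 1, at 1.23, or when the 2 groups were fitted alone, at 2.14. None of the 3 tested mast cell, eosinophil and basophil genes was called.

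Chemokines of monocytes and lymphocytes rose in 15 of 16 tested of 19 listed members (median 4.79; 13 and 3.12 without replicates 2 and 3). Ccl7, with no count at day 0, was tested only through libraries of other groups, so the filter bears on the share that rose. Ccl2, the ligand of Ccr2, had 38.5, 53.6, 100.5 and 38.7 CPM at day 10, against 0.259, 0.595, 0.179 and 0.430 CPM at day 0 (7.26 ± 0.49, adjusted p = 4.76e-10). Cx3cl1, the ligand of Cx3cr1, had 264, 178, 202 and 298 CPM at day 10, against 81.2, 87.7, 88.2 and 92.8 CPM at day 0 (1.43 ± 0.14, adjusted p = 5.91e-08). Of 17 complement genes 14 rose and 2 fell (median 3.41). C3, the central component of the cascade, had 1334, 3059.5, 5602 and 1198 CPM at day 10, against 10.5, 15.6, 19.8 and 16.8 CPM at day 0 (7.48 ± 0.53, adjusted p = 7.25e-10, and 6.36 without both). Cd55, which protects cells from complement, fell in all 4 libraries, with 7.77, 11.6, 11.9 and 15.4 CPM at day 10, against 48.5, 40.3, 38.2 and 44.9 CPM at day 0 (-1.88 ± 0.25, adjusted p = 1.78e-06). Cfd, the other that fell, is an adipocyte gene.

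Proliferation genes were raised, least in replicate 4. Of 22 cell cycle genes 21 rose and 1 fell (median 2.41; 20, 1 and 1.51 without replicates 2 and 3), and replicate 4 was the lowest day 10 library for 18. Mki67, the proliferation marker Ki-67, had 63.5, 89.7, 95.6 and 25.9 CPM at day 10, against 10.9, 6.72, 15.5 and 7.39 CPM at day 0 (2.76 ± 0.35, adjusted p = 1.21e-06). Ccnd1, cyclin D1, was the gene that fell, with 168, 69.0, 92.7 and 322 CPM at day 10, against 344, 374, 409.8 and 374 CPM at day 0 (-1.2 ± 0.31, adjusted p = 0.00176, and -0.59 without replicates 2 and 3). Cdkn1a, the cell cycle inhibitor p21, rose by 3.15 ± 0.32. All 16 immediate early genes rose as well (median 3.5; 13 without replicates 2 and 3). Klf6, an early transcription factor, had 267, 353, 389 and 333 CPM at day 10, against 28.9, 39.7, 44.3 and 39.1 CPM at day 0 (3.14 ± 0.20, adjusted p = 2.43e-10).

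Cell death genes rose in 19 of 20 members (median 2.32; 14 without replicates 2 and 3), and Bid, an activator of mitochondrial apoptosis, fell (-0.96 ± 0.14). Gsdmd, the pore protein of pyroptosis, had 40.9, 62.9, 113 and 25.8 CPM at day 10, against 3.72, 4.08, 3.86 and 2.75 CPM at day 0 (4.07 ± 0.36, adjusted p = 1.07e-08). Mlkl, the effector of necroptosis, had 10.5, 19.6, 29.6 and 7.41 CPM at day 10, against 1.21, 1.70, 1.26 and 1.72 CPM at day 0 (3.5 ± 0.34). Zbp1, a nucleic acid sensor that can start necroptosis, named after its values were seen, had 15, 23.7, 125 and 13.0 CPM at day 10 and 0.519 to 2.92 CPM at day 0 (4.30 ± 0.63, and 2.67 without replicates 2 and 3). Replicate 3 was the highest day 10 library for 15 of the 20 genes.

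Lists with no common direction came next, to be set beside 37.8% of all genes higher and 30.3% lower. Of 23 hypoxia and glycolysis genes 11 rose and 10 fell, with a median of 0.37 that was -0.29 without replicates 2 and 3 (6 higher, 8 lower). Hk2, the inducible hexokinase, had 22.8, 117, 91.9 and 10.1 CPM at day 10, against 0.173, 0.595, 1.35 and 1.12 CPM at day 0 (6.22 ± 0.67), whereas Pgk1, a glycolytic enzyme, had 48.6, 124, 108 and 103 CPM at day 10, against 217, 212, 240.3 and 224 CPM at day 0 (-1.22 ± 0.21). Of 20 lysosome and cathepsin genes 10 rose and 4 fell (median 0.45, and -0.060 with 7 higher and 9 lower without both). Ctsk, a collagen-cleaving cathepsin, had 31.1, 27.0, 39.7 and 25.2 CPM at day 10, against 1.99, 3.66, 3.86 and 2.58 CPM at day 0 (3.35 ± 0.27, adjusted p = 3.25e-09). Of 19 unfolded protein and stress genes 9 rose and 2 fell (median 0.53, and 0.034 without both), beside 37.8% and 30.3% of all genes. Atf3, a stress-induced transcription factor, had 20.8, 19.9, 48.1 and 22.3 CPM at day 10, against 1.73, 0.850, 2.06 and 1.89 CPM at day 0 (4.08 ± 0.41).

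Glomerular and vascular genes changed less than tubule genes. Of 12 podocyte genes 7 rose and 1 fell (median 0.92), and the slit diaphragm gene Nphs1 was not called (0.65 ± 0.32), though it was without replicate 2, at 0.82, with the 2 groups fitted alone, at 0.66, and with scaling to total counts, at 1.15. Synpo, the podocyte actin-binding synaptopodin, had 117, 136, 127 and 125 CPM at day 10, against 72.4, 71.8, 46.4 and 54.5 CPM at day 0 (1.04 ± 0.18, adjusted p = 2.86e-05). Of 17 endothelial genes 9 rose and 1 fell (median 0.82, and 0.40 without replicates 2 and 3), with replicate 2 highest for 15. The podocyte and endothelial counts stand beside 37.8% of all genes higher and 30.3% lower, and neither list carries a test. Cdh5, the endothelial cadherin, had 65.5, 156, 74.2 and 49.5 CPM at day 10, against 25.4, 34.9, 38.0 and 35.1 CPM at day 0 (1.37 ± 0.27, and 0.81 without both). Selp, the P-selectin that captures leukocytes on activated endothelium, had 2.28, 85.7, 29.6 and 0.794 CPM at day 10, against 0.173, 0.340, 0 and 0.0859 CPM at day 0 (7.54 ± 1.19, and 3.31 without both). Pecam1, an endothelial adhesion molecule, had 74.8, 218, 123 and 80.2 CPM at day 10, above its day 0 range (1.07 ± 0.27); without both it was not called, at 0.42, and without replicate 2 it stood at 0.68.

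Markers of neighbouring tissues differed between the groups for some lists. Of 14 urothelium and keratinization genes 4 rose and 1 fell, beside 37.8% and 30.3% of all genes. Replicate 3 was the lowest day 10 library for 13. The summed level of all the list's members in the count table overlapped between the groups, at 20.7 to 141 CPM at day 10 and 13.1 to 103 CPM at day 0. Krt14, a basal keratin, had 7.68, 20.8, 0.484 and 4.87 CPM at day 10 and 0.0865 to 0.680 CPM at day 0 (4.49 ± 1.07). Of 6 adipocyte genes 1 rose and 5 fell, Adipoq stayed under the count filter with at most 2.78 CPM, and Cfd was highest in day 0 replicate 3 at 15.7 CPM and had no count in day 0 replicate 4. Haemoglobin genes were listed at 0 in all libraries. Of 7 tested liver and pancreas genes 1 rose and 5 fell, and the 2 tested adrenal cortex genes rose, beside the same shares of all genes. The part of these tissues in the results was not tested.

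The genes with the widest clear space between the groups ranged from even to very uneven across the day 10 libraries. Among genes whose log2 CPM averaged 1 or more over the 8 libraries, ranked by the gap between the lowest day 10 and the highest day 0 library, the first 12 upward were Havcr1, Cxcl5, Mmp7, Krt20, C3, Ccl2, Cxcl1, Timp1, Ltbp2, Serpina10, Fcrls and Stra6. The range over the 4 day 10 libraries ran from 0.55 log2 units for Serpina10 to 5.38 for Timp1 and 5.81 for Cxcl5. Serpina10, an inhibitor of clotting factor Xa, had 94.0, 90.1, 132 and 113 CPM at day 10, against 1.56, 2.64, 2.51 and 2.23 CPM at day 0 (5.58 ± 0.41). Stra6, the membrane receptor for retinol-binding protein, had 93.0, 73.8, 61.3 and 59.5 CPM at day 10, against 1.38, 1.11, 1.26 and 1.80 CPM at day 0 (5.69 ± 0.37). Downward the list began with Pvalb and held Ces1g, Perm1, Pde6a, Tbx10, Kcnt1, Slc22a7, Apobec2, C1qtnf3, Fancd2os, Ces2b and Syn3, with day 10 ranges from 1.41 for Apobec2 to 7.64 for Slc22a7. Perm1, a regulator of muscle mitochondrial genes, had 0.379, 0.406, 0.665 and 1.75 CPM at day 10, against 18.1, 19.4, 19.4 and 15.3 CPM at day 0 (-4.49 ± 0.41). Slc22a7, an organic anion transporter, had 13.9, 0.457, 0.605 and 116 CPM at day 10, against 752, 738, 671 and 1042 CPM at day 0 (-4.61 ± 1.09, and -7.27 without replicate 4).

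The genes with the widest spread over the day 10 libraries were of a few kinds. Under the same limit on the mean, the first 12 by SD of log2 CPM were S100a8, S100a9, Arg1, Il1b, Hcar2, Slfn4 and Hdc, of myeloid cells, and Dnase1, Mep1b, Ces1f, Akr1c14 and Serpina1d, which kidney tubules or liver express. Hdc, the enzyme that makes histamine, had 1.23, 311, 199 and 0.899 CPM at day 10, against 0.259, 0.340, 0.449 and 0.516 CPM at day 0 (8.33 ± 1.85, and 1.46 and not called without both). Mep1b, a brush border protease, had 18, 0.152, 2.12 and 125 CPM at day 10, against 596, 623, 619 and 724 CPM at day 0 (-4.14 ± 1.03). Without replicate 4 the fold changes of Mep1b, Dnase1, Ces1f, Akr1c14 and Serpina1d were -6.52, -5.39, -5.50, -5.36 and -5.35, against -4.14, -3.32, -3.62, -3.22 and -3.34 with it, and all but Mep1b lost their calls when the 2 groups were fitted alone. Ces1f and Serpina1d have near-identical copies, so how reads were shared among them is uncertain. A day 10 range of at least 4 log2 units was found for 418 genes, against 4 genes for day 0. Another 23 genes did not pass the count filter of the test though they reached 10 CPM in a day 10 library, 8 of them highest in replicate 2 and 15 in replicate 3. The acute phase gene Saa3 was among them, with 0.379, 579, 4905 and 0.317 CPM at day 10.

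**Figure D4:**
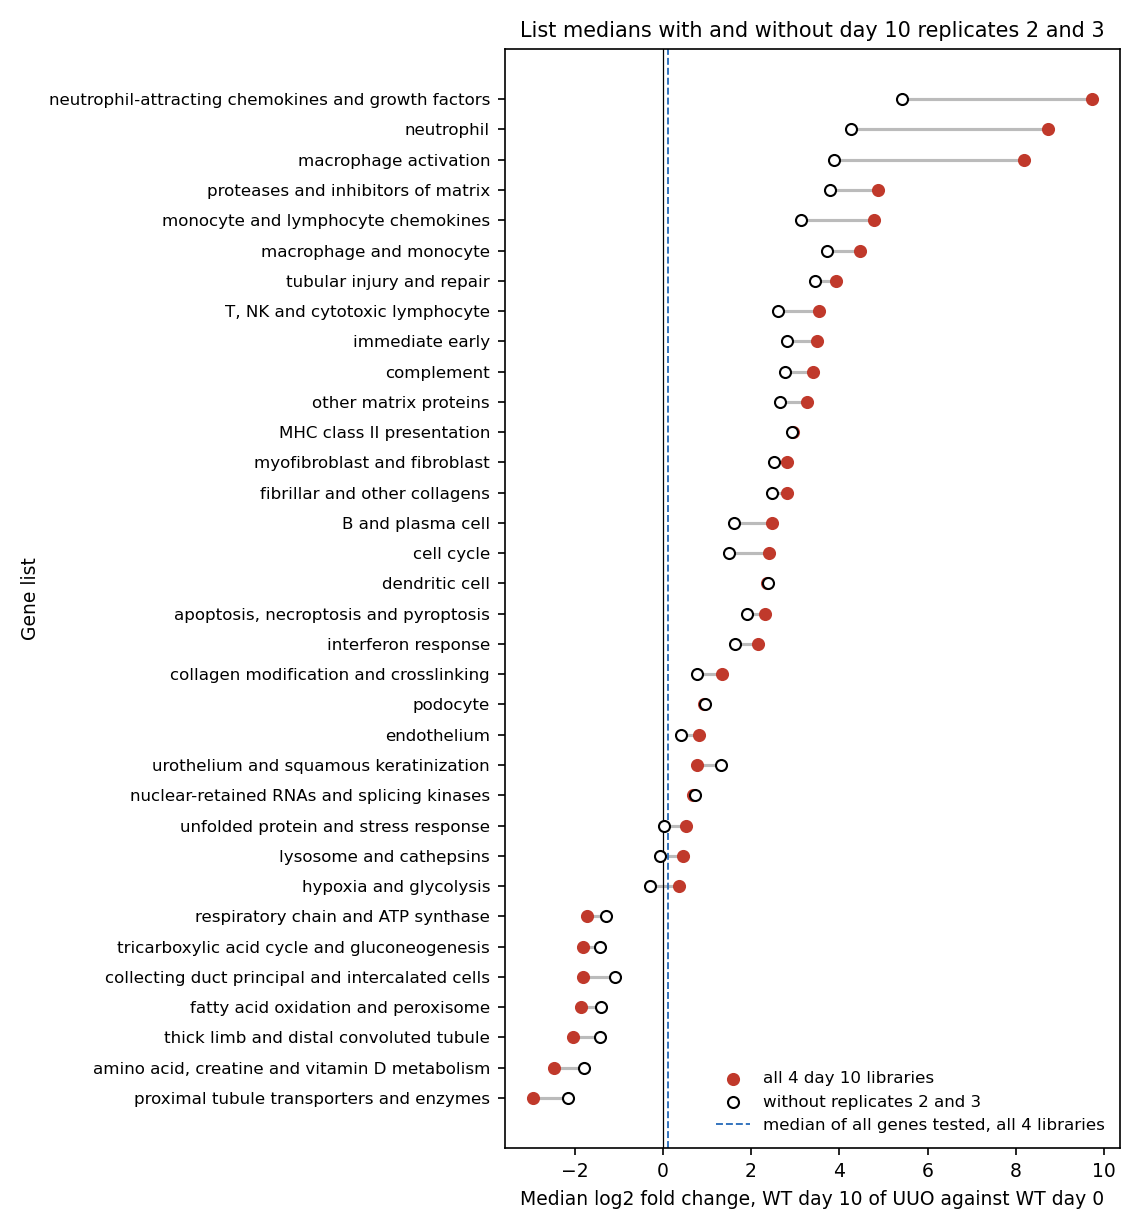
Median log2 fold change of WT day 10 against WT day 0 for each gene list, with all 4 day 10 libraries (red) and without replicates 2 and 3 (open); the dashed line marks the median of all genes tested, 0.12. The neutrophil, neutrophil-attracting and activation lists move most (8.72 to 4.26 for neutrophil genes), while MHC class II and dendritic cell lists stay in place.

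The day 10 kidneys were also set against the WT kidneys at day 5 of UUO, a comparison that uses the same day 10 libraries. At day 10, 1186 genes were higher than at day 5 (7.86%) and 442 lower (2.93%). Same-numbered libraries of the 2 groups deviated together, and with the replicate number as a block 1125 genes were higher and 722 lower. With only the 2 groups fitted, no gene was called (1863 at an unadjusted p under 0.05). Without replicates 2 and 3 no gene was called by edgeR (845 at an unadjusted p under 0.05), and the count was 439 without replicate 2 and 359 without replicate 3, against 2699 without replicate 1 and 4515 without replicate 4. Under the same limit on the mean, the 6 largest rises were Arg1 (10.70), S100a8 (8.51), S100a9 (8.34), Il1b (7.42), Hcar2 (6.86) and Hdc (6.60), all on the log2 scale. S100a8 averaged 785 ± 1017 CPM at day 10 and 2.16 ± 1.27 CPM at day 5 (SD, n = 4 each). The largest falls were smaller than these rises, and among them Gsta2, Apoc3, Slc51a, Guca2b and Asb11 fell by 1.66 to 2.21. Of the lists, 18 of 21 macrophage genes and none of 22 interferon genes were higher at day 10 than at day 5.

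A last comparison asked whether the day 10 response differed between WT and KO, as a difference of the 2 changes from day 0. It was more positive in WT for 470 genes (3.12%) and more negative for 20 (0.133%). Under the same limit on the mean, the largest differences called were those of Hdc (12.36), S100a9 (9.71), Slfn4 (9.13), Mmp9 (7.83), Cd300lf (7.75) and F10 (7.37). For Hdc the KO day 0 level takes part, since at day 0 Hdc averaged 0.391 ± 0.114 CPM in WT and 18.4 ± 35.4 CPM in KO (SD, n = 4 each). The same holds for Serpina10, which averaged 2.23 CPM in WT and 24.6 CPM in KO at day 0, but 107 and 112 CPM at day 10. S100a9 instead was low in both at day 0 (0.526 and 0.626 CPM) and averaged 1306 and 1.72 CPM at day 10. A positive difference alone thus does not say that the WT level was higher at day 10. The count was 153 without WT day 10 replicates 2 and 3, and it ran from 246 to 1808 with any 1 library left out, so its size rests on single libraries. It was 2 when only the 4 groups compared were fitted, and limma called 1 on log2(FPKM + 1) and 161 on log2(FPKM + 0.1). Macrophage genes made up 14 of the calls upward from a list of 21. Among them Cx3cr1 averaged 4.69 CPM in WT and 16.4 CPM in KO at day 0, and 66.9 and 83.7 CPM at day 10. C1qa averaged 16.5 and 49.9 CPM at day 0, and 364 and 243 CPM at day 10. Among the largest differences downward were those of Tgm7, Hsd17b11, Zfp810, Tgm1 and Spats2l, between -1.52 and -1.08.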

How the data were processed

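Per the labels' protocols, RNA was extracted with TRIzol and libraries were made with a TruSeq stranded mRNA kit and read on a NextSeq500. The submitters' processing notes name bcl2fastq 2.16, STAR 2.5, Cufflinks and the mm9 build. The authors deposited a table of raw counts per gene symbol (23955 symbols) and a table of FPKM values (23953 symbols, 23894 in both). The tool, annotation and strand setting behind the counts are not given in the sources used here, so overlapping and antisense genes may share reads, and values of near-identical copies are uncertain.

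Counts of all 24 libraries were fitted together in edgeR 4.0.16 (limma 3.58.1, R 4.3.3) with 6 group means and 18 residual degrees of freedom, after filterByExpr (minimum count 10, minimum total 15) and TMM scaling. Robust quasi-likelihood tests were adjusted by Benjamini-Hochberg over 15080 genes, with a threshold of 0.05. SEs are the fold change over the square root of F, CPM are scaled by TMM, and log2 CPM used a prior count of 2. For genes with at most 3 counts over the day 0 group, no fitted fold change is given: folds use a floor of 3 counts, or a ratio with its 95% exact counting interval. The test was tried on simulated counts of the same depth (15010 genes), where 29 of 50 genes changed 2-fold and 43 of 50 changed 4-fold were recovered.

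The members and gene lists were chosen with earlier results of these data known, so no list carries a test. Named genes are the fixed injury, matrix, tubule and myeloid genes, the 12 with the widest gap between the groups each way, the 12 with the largest day 10 SD, up to 4 per list by adjusted p with members that moved otherwise, and the 6 largest per other contrast each way; other genes named were chosen after their values were seen. Some genes that this rule picks are not reported here. Alternatives were RLE scaling, DESeq2 1.42.0, limma on log2 FPKM (pseudocounts 1 and 0.1), other filters, a prior count of 0.5, only the groups compared, a replicate block and leaving libraries out; scaling to total counts was added after the data were seen. By the labels' replicate numbers, same-numbered day 10 and day 5 libraries deviated together (r of 0.105 to 0.361 over the 4 pairs), as did WT and KO day 10 libraries (0.141 to 0.306), though not each library did so best with its own number; day 10 and day 0 libraries did not. Promoter windows were read from RefSeq's GRCm38.p6 table by symbol.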

Additional observations from a re-analysis of the deposited data

Results flagged for a closer look

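Some libraries stood apart from the 3 others of their group, by a gap to the nearest library, as a share of the group's range in log2 CPM, above Dixon's 95% critical value for 4 samples. Chance alone gives such a gap in about 1 of 20 groups, and over all genes tested it was found for 4.36% at day 10 and 6.10% at day 0. At day 10, replicate 3 stood apart for Cd4 (0.908), Ifng (0.922) and Atf3 (0.869), replicate 2 for Acta2 (0.879) and Cfd (1), and replicate 4 for Cox5a (0.964) and Pvalb (1). At day 0, replicate 4 stood apart for Gatm (0.924), Gbp2 (0.865) and Hbegf (0.944), replicate 3 for Cd209a (0.892), Ifng (1), Mmp9 (0.953) and Nphs1 (0.895), replicate 1 for Ltbp2 (0.91) and Zbp1 (0.949) and replicate 2 for Cxcl3 (1). Values of 1 come from genes at the same level, mostly no count, in the 3 other libraries.

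The day 10 response of 26 named genes differed between WT and KO by the interaction test of edgeR, given as the WT change minus the KO change on the log2 scale. The differences were 12.36 for Hdc, 9.71 for S100a9, 9.13 for Slfn4, 7.83 for Mmp9, 7.75 for Cd300lf, 7.37 for F10, 6.14 for Il1b, 5.75 for Csf3r and 4.35 for Itgam. They were 3.72 for Ccl2, 3.38 for Serpina10, 3.11 for Cd4, 2.77 for Cd44, 2.54 for C3, 2.18 for C1qa, 2.14 for Cdkn1a, 2.11 for Gsdmd, 1.9 for Ccr2, 1.63 for Pld4, 1.48 for Cx3cr1 and 1.47 for Vcam1. Not all of these stand for a higher WT level at day 10. Vcam1 averaged 8.79 CPM in WT and 28.9 CPM in KO at day 0, and 429 and 510 CPM at day 10. Pld4 averaged 6.69 and 9.48 CPM at day 0, and 81.5 and 37.3 CPM at day 10. Negative differences were -1.52 for Tgm7, -1.48 for Hsd17b11, -1.24 for Tgm1, -1.24 for Zfp810 and -1.08 for Spats2l. Without WT day 10 replicates 2 and 3, 153 genes were called in this comparison, against 490 with them. Only 2 were called when the 4 groups compared were fitted alone, and limma called 1 on log2(FPKM + 1) and 161 on log2(FPKM + 0.1).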

How the results depend on the processing

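The count of genes that differed between day 10 and day 0 stayed within 1.5 times its 10267 under all alternatives run, at 8628 to 12238, and at 9674 to 10603 with 1 library left out. Against day 5 it was 1628; fitting only the 2 groups compared, or leaving out day 10 replicates 2 and 3, gave 0 (1863 and 845 at an unadjusted p under 0.05), and leaving out 1 library 359 to 4515. The genotype difference (490) fell to 2 with only its groups, 153 without replicates 2 and 3, and 1, 161 and 4 with limma on log2(FPKM + 1), log2(FPKM + 0.1) and log2(FPKM + 1) unfiltered. DESeq2 gave 862, and leaving out 1 library 246 to 1808. The cause was not tested. The share of day 5 calls that were higher was 72.9% by edgeR and 44.9% by limma on log2(FPKM + 1). Against day 0 the share was 55.5% by edgeR (5700 higher, 4567 lower) and 80.2% by the same limma fit (8327 higher, 2056 lower). Of these limma calls against day 0, 6788 were shared with edgeR in the same direction.

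Of 135 named genes tested, 110 kept direction and call throughout. With limma on log2(FPKM + 1), filtered or not, Kng1 turned to -0.65, Mertk to 0.25, Tgm7 to 0.26 and Vegfa to 0.16; on log2(FPKM + 0.1) they were at -0.73, 0.26, 0.49 and 0.16. Scaling to total counts, added after the data were seen, put Mertk at 0.16, Tgm7 at 0.37 and Vegfa at 0.070. Leaving out 1 library moved Tgm7 between -0.26 and 0.040. Without replicates 2 and 3, the median of the hypoxia list turned to -0.29 and that of the lysosome list to -0.060. The skeletal muscle list, of 3 genes, ran from -0.021 to 0.45 with 1 library left out.

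Between day 10 and day 0, samples of the same replicate number deviated together by r of 0.008 to 0.083, so they share only a number there. With the number as a replicate block 10307, 1847 and 431 genes were called in the 3 comparisons, and of the named genes only the call of Hpd changed, at -3.49. Depth limits genes at a few counts, such as Ifng, to counting error.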

Other observations

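Some genes that failed the count filter, which asks for a level of about 10 counts in at least 4 libraries, were among the strongest signals of single libraries at day 10. Saa3, an acute phase protein, reached 4905 CPM in replicate 3 and 579 CPM in replicate 2, against 0.379 and 0.317 CPM in replicates 1 and 4. Il1f9, an interleukin 1 family cytokine, had 0.142, 39.4, 119 and 0.370 CPM, and Il1a, interleukin 1 alpha, had 0.332, 58.7, 92.1 and 0.106 CPM in the 4 libraries. Marco, a scavenger receptor of macrophages, had no count in replicates 1 and 4 and 26.2 and 40.6 CPM in replicates 2 and 3. Ccl24, an eosinophil chemokine, and Serpinb2, a plasminogen activator inhibitor, were high in replicate 2, with 0.142, 88.3, 2.18 and 0.265 CPM for Ccl24 and 0, 55.4, 5.02 and 0 CPM for Serpinb2. Ngp, a granule protein of immature neutrophils, had 0, 7.87, 37.1 and 0 CPM. These genes were chosen after their values were seen.

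Serpina1d, one of several near-identical antitrypsin genes, averaged 24.6 ± 38.3 CPM at day 10 and 249 ± 27.4 CPM at day 0 in WT, against 1.08 ± 0.0596 CPM at day 10 and 0.986 ± 0.666 CPM at day 0 in KO (SD, n = 4 each). The genotypes did not match at day 0 for this gene, which too is singled out after its values were seen.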
